A study of Rattus norvegicus with 8 samples.

Results

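Cytosolic ribosomal protein genes were examined in SF2 cells, a rat dental epithelial line whose source is the cervical loop of lower incisors, where the progenitors of enamel-forming cells lie. A gene row was taken when its symbol began with Rpl or Rps followed by a digit, or was Rplp0, Rplp1, Rplp2 or Rpsa, with the Rps6 kinases left out, and when it reached 1 CPM (reads of a row scaled by the library total) in at least 4 of the 8 libraries. Of 30240 rows in the table, 168 had such a symbol and 138 of these also reached the level. There were 8 libraries: 4 of AmeloD-overexpressing cells and 4 of Control cells. Within each genotype 2 libraries carried the label N and 2 the label TGF, in each case 1 with pCMV6 and 1 with pCMV6.ODAM. AmeloD is the basic helix-loop-helix factor encoded by Ascl5, ODAM is odontogenic ameloblast-associated protein, and N and TGF are not spelled out in the labels. The plasmid backbone pCMV6 was shared by all 8 libraries.

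The cytosolic ribosome translates mRNA and is built from ribosomal RNA and a set of proteins in the small 40S and the large 60S subunit. The proteins are needed in equal numbers, apart from the stalk proteins P1 and P2, and their mRNAs belong to the most abundant of growing cells. Many of these mRNAs begin with a run of pyrimidines, the TOP motif, through which the mTOR pathway controls their translation. Each ribosomal protein gene also left many processed copies in mammalian genomes, so that a read from one gene can match several places.

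The 138 rows carried 131 symbols. Of them 30 had the symbol of a 40S protein, 42 that of a 60S protein and 3 that of a stalk protein, 47 had a symbol ending in -ps for pseudogene, 15 had the symbol of a paralog or a copy, and 1 was Rps19bp1, a protein that binds Rps19 and is not itself a ribosomal protein. Of 77 proteins listed for the ribosome, 70 had a row of their own symbol among the 138. Rps18, Rps26, Rpl7, Rpl27a, Rpl36, Rpl37a and Rpl41 had none. Abundant rows beside the neighbours of Rpl37a, and of Rps26 and Rpl41, lay outside the name rule and are described at the end. Of the 168 rows, 30 stayed below the level, 23 of them with a -ps symbol and 13 with 0 reads. The level was reached in all 8 libraries by 136 rows, in 7 by 1 row, and in 4 by Rpl12-ps2, the lowest row, at 0.406 to 1.30 CPM. Just outside stood Rpl10a-ps9, Rpl10a-ps1 and Rps15al2, each at 1 CPM or more in 2 libraries.

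The symbols did not follow the position of the genes. A row was called at the locus of its family when at least 2 of its 6 named neighbours on either side were also neighbours of that ribosomal protein gene in RefSeq (assembly GRCr8, used for the order of genes only). This held for 72 rows, and 66 rows lay elsewhere. Among the 72 were 5 rows with a -ps symbol and several exons, for example Rpl38-ps9 on chromosome 10 with 10 shared neighbours and Rpl8-ps7 on chromosome 7 with 10, whereas the rows with the symbols Rpl38 (chromosome 14, 1 exon) and Rpl8 (chromosome 3) shared 0. All 51 rows with 1 exon lay away from the locus of their family. The 72 rows at their locus held 91.4% to 92.9% of the reads of the 138 rows. The handling of reads that match several rows was not given in the sources used here, so each value of a row with copies is uncertain to that extent.

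The start sites of genes described below are shown because a TOP run at the start was more frequent in ribosomal protein promoters than in others. The sequences are 15 bases before and 15 bases from the annotated start on, from RefSeq promoters (build GRCr8), on the strand of the gene. Capitals mark the longest run of C or T of at least 5 bases.
Rpl3 (chr7:113507976-113508005, minus strand): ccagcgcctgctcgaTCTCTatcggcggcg
Rpl4 (chr8:73566462-73566491, plus strand): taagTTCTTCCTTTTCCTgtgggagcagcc
Rpl7a (chr3:30637121-30637150, plus strand): CTCTCCTCCagccgagcaagatggtgagtg
Rpl19 (chr10:83519049-83519078, plus strand): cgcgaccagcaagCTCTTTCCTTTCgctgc
Rpl38 (chr10:100200420-100200449, plus strand): cttcgTTCTTTTTCCgttgttcggtgctcg
Rps12 (chr1:23500060-23500089, plus strand): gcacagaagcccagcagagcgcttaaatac
Rps21 (chr3:187724023-187724052, plus strand): gaacgagccaCTTCCTTTCTgtgttctccg
Rplp0 (chr12:46718376-46718405, minus strand): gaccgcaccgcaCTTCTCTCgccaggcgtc
Rplp1 (chr8:71290858-71290887, minus strand): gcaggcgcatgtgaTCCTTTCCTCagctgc
Rplp2 (chr1:205975906-205975935, plus strand): CCTTTCgccgccggacgccgccgaggtcgc

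In this window 9 of the 10 had such a run, of 14 bases in Rpl4 and 12 in Rpl19, and Rps12 had none at its annotated start. In Rpl7a, Rpl38 and Rplp2 the run ended before the start. Only Rpl19, Rplp0 and Rplp1 had a C at the annotated start followed by at least 4 bases C or T. No share over all promoters was taken for a run anywhere in the window. Of the 72 families at their locus 59 had a promoter entry, 58 of them ribosomal proteins. A C at the annotated start followed by at least 4 bases C or T was found in 21 of the 58 (36.2%) against 2.63% of all 33469 promoters in the table. With a start allowed up to 10 bases to either side it was found in 43 (74.1%) against 28.9%. The motif CCGGAA, searched on both strands of the 300-base promoter, was in 28 (48.3%) against 15%, AAGATGG in 10 (17.2%) against 7.01%, and TATAAA in 7 (12.1%) against 14.2%. The pyrimidine run, CCGGAA and AAGATGG were thus more frequent in these promoters than in all, and TATAAA was not. A match is a description of the letters and not a site. For Rpl23a, Rpl27 and Rpl8 no entry was given.

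The cells were first checked against epithelial genes. The keratin Krt5 read 177 to 296 CPM and Krt17 300.5 to 546 CPM, and Cdh1, Epcam, Cldn1 and Tp63 were also read. The enamel matrix genes Amelx, Ambn, Enam, Amtn, Klk4 and Mmp20 had 0 reads in each library, and the 11 markers of mesenchyme, leukocytes and endothelium had 0 to 4 reads each over the 8 libraries together. Ascl5 had 0 reads in every library, which in a 3'-end library does not check a construct. Odam had 10 and 17 reads in the Control pCMV6.ODAM libraries (N, then TGF) and 1 and 3 in the AmeloD pCMV6.ODAM libraries. With pCMV6 it had 1 read in the Control N library and 0 elsewhere. In AmeloD cells these reads were too few to check the plasmid label. Libraries totalled 10568146 to 17775226 reads, of which 15.6% to 17.5% lay in the table. All 4 Control libraries were deeper than all 4 AmeloD libraries, so depth and genotype cannot be told apart.

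The ribosomal protein rows together took 28729 to 31728 CPM per library, 17.7% to 19.6% of the reads in the table. The sum was 30833 ± 636 CPM in AmeloD and 30193 ± 996 CPM in Control (mean ± SD, n = 4 libraries), and the libraries overlapped. Over all 138 rows the coefficient of variation between the 8 libraries had a median of 10.96% and reached 34.9%, with counting alone giving a median of 3.37%. For the 51 rows whose mean reached 100 CPM the coefficient of variation over the 8 libraries had a median of 8.37% and a range of 3.29% to 24.7%, where counting alone gives a median of 1.51%. Among the most abundant rows were Rpl34 and Rps27 with means of 1969.9 and 1752 CPM. The lowest rows were Rpl12-ps2, Rps2-ps13 and Rps27a-ps6 with means of 0.958, 1.44 and 1.84 CPM.

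In AmeloD-overexpressing cells 10 rows were higher and 8 rows were lower, with log2 differences from -0.67 to 0.60 over the 138 rows. Of the 138 rows 82 were of the 60S subunit, and of these 9 were higher and 3 lower. The largest rise was that of Rpl23a, which lies at the exit of the peptide tunnel, and Rpl4, Rpl19 and Rpl7a rose too. The largest fall was that of Rpl37a-ps1, and Rps19bp1, the 40S protein Rps12 and the stalk protein Rplp2 fell too. Of the 138 rows 10 were higher and 8 lower in AmeloD (limma on log2(CPM + 1), adjusted p below 0.05), together 13% of the rows, and 120 did not pass. Over all 6849 tested genes 13.8% passed, 9.07% higher and 4.75% lower, which was close to the share of the ribosomal protein rows. This closeness depended on the filter. At 10 CPM in 4 libraries, 12 rows were higher and 8 lower of 114, against 235 genes higher and 170 lower of 1550. Among these more abundant genes the share that changed was smaller in the ribosomal protein rows than in all tested genes. The median difference of the 138 rows was 0.01 on the log2 scale, with 70 (50.7%) above 0. Over all tested genes it was 0.05, with 57.0% above 0. Of the 138 rows 3.62% lay beyond 0.5 in size against 13.4% of all tested genes, a set not matched to the rows for abundance. Under TMM scaling the split was 8 higher and 10 lower and with the same median in every library 8 higher and 13 lower. Nothing in the labels says that the libraries came from separate cultures, so p-values measure only the spread between these libraries, and in bulk cells a change in the mix of cells and a change of RNA per cell cannot be told apart.

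Among the rows that rose, the 60S protein Rpl23a (chr10:63076066-63079346, build mRatBN7.2, 6 exons) read 299, 282, 254 and 291 CPM in the AmeloD libraries (here and below given first for N with pCMV6, then N with pCMV6.ODAM, TGF with pCMV6 and TGF with pCMV6.ODAM) and 192, 180.4, 164 and 209.5 CPM in the Control libraries. The lowest AmeloD library lay above the highest Control library, and all 4 pairs of libraries matched for plasmid and TGF label had the same sign. The means were 281 ± 19.7 and 186 ± 19.3 CPM and the log2 difference was 0.60 (SE 0.09, adjusted p = 4.71e-05).

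Rpl4, a 60S protein that lines the exit tunnel (chr8:64671160-64676306, 11 exons), read 101, 91.7, 90.3 and 94.7 CPM in AmeloD and 66.5, 66.2, 56.7 and 74.99 CPM in Control. The groups did not overlap, and the log2 difference was 0.52 (SE 0.10, adjusted p = 0.00105). Rpl19, which forms a bridge to the 40S subunit (chr10:83019257-83052112, 8 exons), read 170.4, 157, 154 and 173 CPM against 125, 106, 107 and 137 CPM. Again the AmeloD libraries all lay above the Control libraries, by 0.46 (SE 0.10, adjusted p = 0.00202). Rpl7a (chr3:10239001-10241716, 9 exons) read 189, 178, 176 and 182 CPM against 141, 126, 130.3 and 157 CPM, without overlap and with a difference of 0.39 (SE 0.09, adjusted p = 0.00503). In Rpl19 and Rpl7a the Control pCMV6.ODAM TGF library was the highest of its genotype, as it was in Rpl23a and Rpl4.

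**Figure D1:**
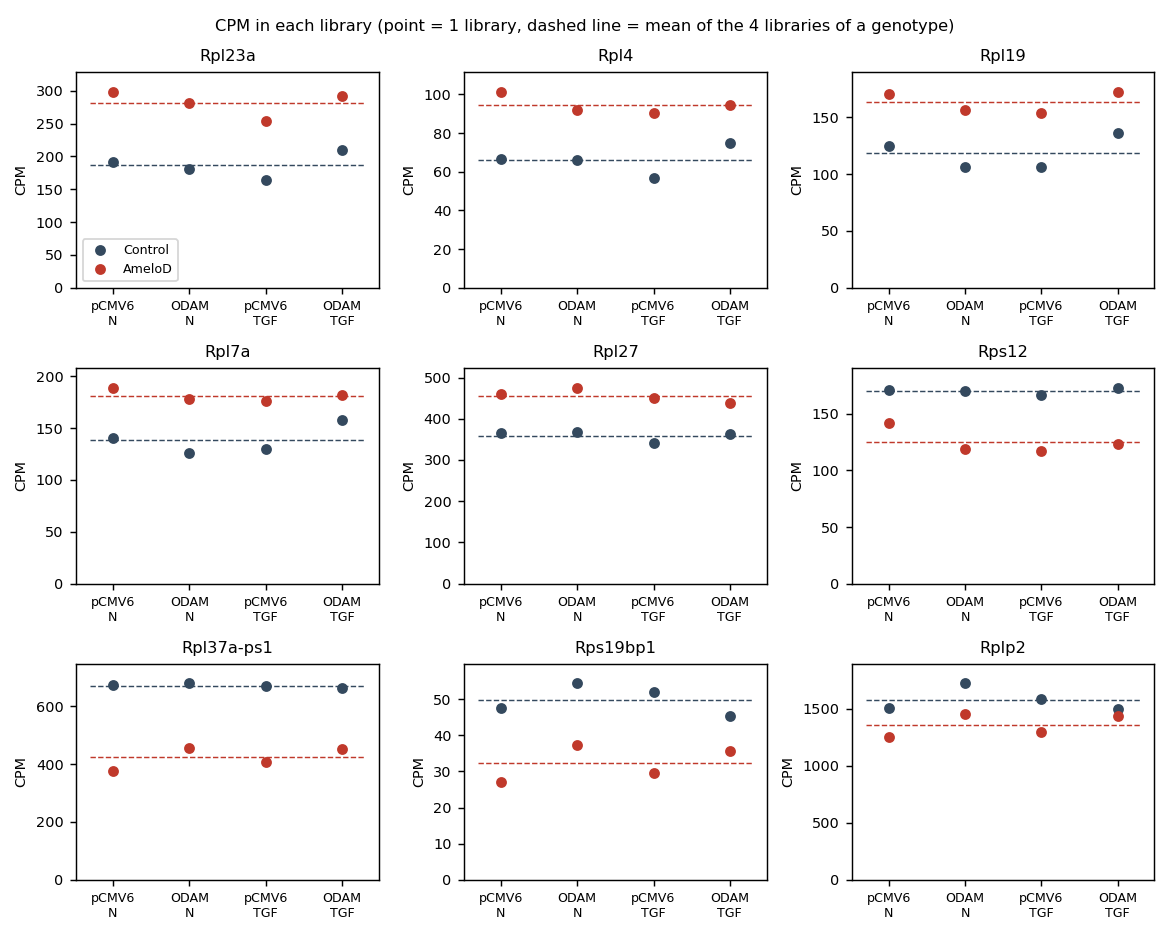
CPM of 9 rows in each of the 8 libraries; each point is 1 library, red for AmeloD and dark for Control, each dashed line the mean of the 4 libraries of a genotype, and ODAM on the axis stands for pCMV6.ODAM. In every panel the red and dark points do not overlap: Rpl23a, Rpl4, Rpl19, Rpl7a and Rpl27 are higher and Rps12, Rpl37a-ps1, Rps19bp1 and Rplp2 lower in AmeloD.

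Of the other rows that rose all but Rpl3 belonged to families with copies. Rpl27, a 60S protein, read 460.3, 476, 450.1 and 437 CPM in AmeloD and 365, 368, 342 and 362 CPM in Control, a difference of 0.34 (SE 0.08, adjusted p = 0.00303) without overlap. Its single-exon copy Rpl27-l1 on the X chromosome read 83.5 to 89.9 CPM against 66.3 to 69.2 CPM, a difference of 0.36 (SE 0.10, adjusted p = 0.0131). This copy thus moved by nearly the same factor as Rpl27, and its call was lost under TMM scaling, with the same median in every library, by edgeR, and without the Control pCMV6.ODAM N library (adjusted p = 0.0585).

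Rpl38-ps9 on chromosome 10, the row at the Rpl38 locus, read 576, 675, 576 and 663 CPM in AmeloD and 461, 540.4, 472 and 437 CPM in Control. The highest Control library stayed below the lowest AmeloD library, and the difference was 0.38 (SE 0.08, adjusted p = 0.00175). The edgeR and DESeq2 tests did not call it. The other 4 rows of the family, on chromosomes 16, 3, 2 and 14, differed by 0.28, 0.32, 0.33 and 0.08 and did not pass.

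Rpl8-ps7, the row at the locus of the 60S protein Rpl8, read 154 to 169 CPM in AmeloD and 111 to 135 CPM in Control, without overlap and with a difference of 0.36 (SE 0.09, adjusted p = 0.0102). Leaving out the AmeloD pCMV6 N, Control pCMV6.ODAM N or Control pCMV6 TGF library lost this call, with adjusted p up to 0.0921. Rpl3, which surrounds the peptidyl transferase centre, read 38.4 to 49.3 CPM against 31.7 to 37.7 CPM, a difference of 0.34 (SE 0.12, adjusted p = 0.0497). The Rpl3 call was lost under every scaling and count tool tried and without any 1 of 6 libraries (adjusted p up to 0.239). Only the AmeloD pCMV6.ODAM N and Control pCMV6.ODAM TGF libraries could be left out. The Rpl3 call was also lost with a pseudocount of 0.5 or 5 and with no filter beyond 1 read.

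The one 40S family with a rise was that of Rps7. The single-exon copy Rps7-ps23 read 26.5 to 33.8 CPM in AmeloD and 20.1 to 24.0 CPM in Control, a difference of 0.45 (SE 0.12, adjusted p = 0.0124). That call was lost without the AmeloD pCMV6 N, AmeloD pCMV6.ODAM TGF or Control pCMV6 TGF library (adjusted p up to 0.0764). Rps7 itself, at its locus, read 93.3 to 126 CPM against 74.9 to 96.6 CPM, a difference of 0.31 that did not pass (adjusted p = 0.0543), with overlap of the groups.

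Among the rows that fell, Rpl37a-ps1 (chr5:139329325-139330057, 1 exon) read 378, 456, 407 and 452 CPM in AmeloD and 673, 679, 670.0 and 664 CPM in Control. The 4 Control libraries lay close together, with a mean of 672 ± 5.99 CPM (SD), and above all AmeloD libraries, whose mean was 423 ± 37.5 CPM. The difference of -0.67 (SE 0.08, adjusted p = 9.18e-07) was the largest of the 138 rows. A second copy of the same family on chromosome 10, Rpl37a-ps12, read 4.80 to 7.24 CPM against 8.46 to 10.3 CPM, a difference of -0.55 (SE 0.15, adjusted p = 0.0181). The Rpl37a-ps12 call was lost when any 1 of the 4 pCMV6 libraries was left out (adjusted p up to 0.0993). No row carried the symbol Rpl37a. A more abundant row without a symbol, outside the 138, lay between the RefSeq neighbours of Rpl37a. It had a mean of 3288 CPM and a log2 difference of -0.66, and is described at the end.

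Rps19bp1 (chr7:111809355-111812757, 4 exons) read 27.1, 37.5, 29.5 and 35.8 CPM in AmeloD and 47.6, 54.4, 52.0 and 45.4 CPM in Control. The groups did not overlap, and the row fell by 0.61 on the log2 scale (SE 0.12, adjusted p = 0.000626). Its partner Rps19, a 40S protein, read 533 to 753 CPM in AmeloD and 525 to 609.6 CPM in Control and did not pass (log2 difference 0.09, SE 0.09, adjusted p = 0.58).

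Rps12, a 40S protein at the head of the subunit (chr1:21680852-21683014, 10 exons), read 142, 119, 117 and 123 CPM in AmeloD and 171, 169.8, 167 and 173 CPM in Control. The Control libraries lay close together and above every AmeloD library, and the row fell by 0.44 (SE 0.09, adjusted p = 0.00142). Its copies Rps12l2 and Rps12l3 were low, at 1.46 to 4.69 CPM, with differences of -0.34 and -0.33 that did not pass.

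Rps21, another 40S protein, read 635, 659, 650.1 and 601 CPM in AmeloD and 719, 764, 760.2 and 732 CPM in Control, a difference of -0.22 (SE 0.07, adjusted p = 0.0429) without overlap. Its single-exon copy Rps21-ps1 read 29.3 to 33.1 CPM against 38.9 to 40.7 CPM, a difference of -0.34 (SE 0.11, adjusted p = 0.0357). Both calls were near the threshold: that of Rps21 was lost without any library except AmeloD pCMV6.ODAM N (adjusted p up to 0.179), and that of Rps21-ps1 without any of the 8 (up to 0.128). Both were also lost with no filter beyond 1 read. The single-exon row Rpl36-ps3 read 24.4 to 31.6 CPM in AmeloD and 34.1 to 39.6 CPM in Control, a difference of -0.44 (SE 0.11, adjusted p = 0.00915). Without the AmeloD pCMV6.ODAM N library its adjusted p was 0.0505.

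Of the stalk proteins, Rplp2 read 1254, 1452, 1293 and 1433 CPM in AmeloD and 1509.6, 1722, 1583 and 1496 CPM in Control. The AmeloD libraries all lay below the Control libraries, and the row fell by 0.22 (SE 0.07, adjusted p = 0.0419). This call was lost under TMM scaling, with no filter beyond 1 read, and with the libraries matched for plasmid and TGF label as blocks (adjusted p = 0.0516). The call was also lost without the AmeloD pCMV6 N, AmeloD pCMV6 TGF, Control pCMV6 N, Control pCMV6.ODAM N or Control pCMV6 TGF library (adjusted p up to 0.233). Its partner Rplp1 read 484, 504, 479 and 457 CPM against 482, 569, 501 and 541 CPM, a difference of -0.12 (SE 0.08, adjusted p = 0.355) with overlap. Rplp0, which anchors the stalk, read 195, 184, 205 and 280.4 CPM against 232, 256, 227 and 249 CPM. Its AmeloD pCMV6.ODAM TGF library was the highest of all 8 and the other 3 AmeloD libraries were the lowest, and it did not pass (-0.18, SE 0.10, adjusted p = 0.265). The 3 stalk rows summed to 2055 ± 117 CPM in AmeloD and 2342 ± 141 CPM in Control, without overlap.

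By subunit, over all rows 9 of 82 rows of the 60S subunit were higher and 3 lower in AmeloD, and 1 of 52 rows of the 40S subunit was higher and 3 lower, against 9.07% higher and 4.75% lower over all tested genes. The 72 rows at their own locus are a subset chosen after seeing the data. Of 39 such rows of the 60S subunit 8 were higher and 0 lower in AmeloD, with a median difference of 0.09 and 25 above 0. Of 29 rows of the 40S subunit 0 were higher and 2 lower, with a median of 0.02 and 17 above 0. The other 2 calls at a locus were the falls of Rplp2 and Rps19bp1. With all rows counted by family, 8 of 42 families of the 60S subunit had a row that rose and 2, those of Rpl36 and Rpl37a, had a row that fell. Of 31 families of the 40S subunit 1 had a row that rose and 2 had a row that fell. The 60S rows with a canonical symbol summed to 14119 ± 401 CPM in AmeloD and 12937 ± 670 CPM in Control with overlapping libraries, and the 40S rows to 11029 ± 198 and 11175 ± 337 CPM. These counts and sums leave out rows without a ribosomal protein symbol. Among those left out, the row between the RefSeq neighbours of Rpl37a read 2551 ± 239 CPM in AmeloD and 4024 ± 101 CPM in Control. The sums and the count of 60S rows that fell thus depend on the name rule. Whether the subunits differed from each other was not tested.

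**Figure D2:**
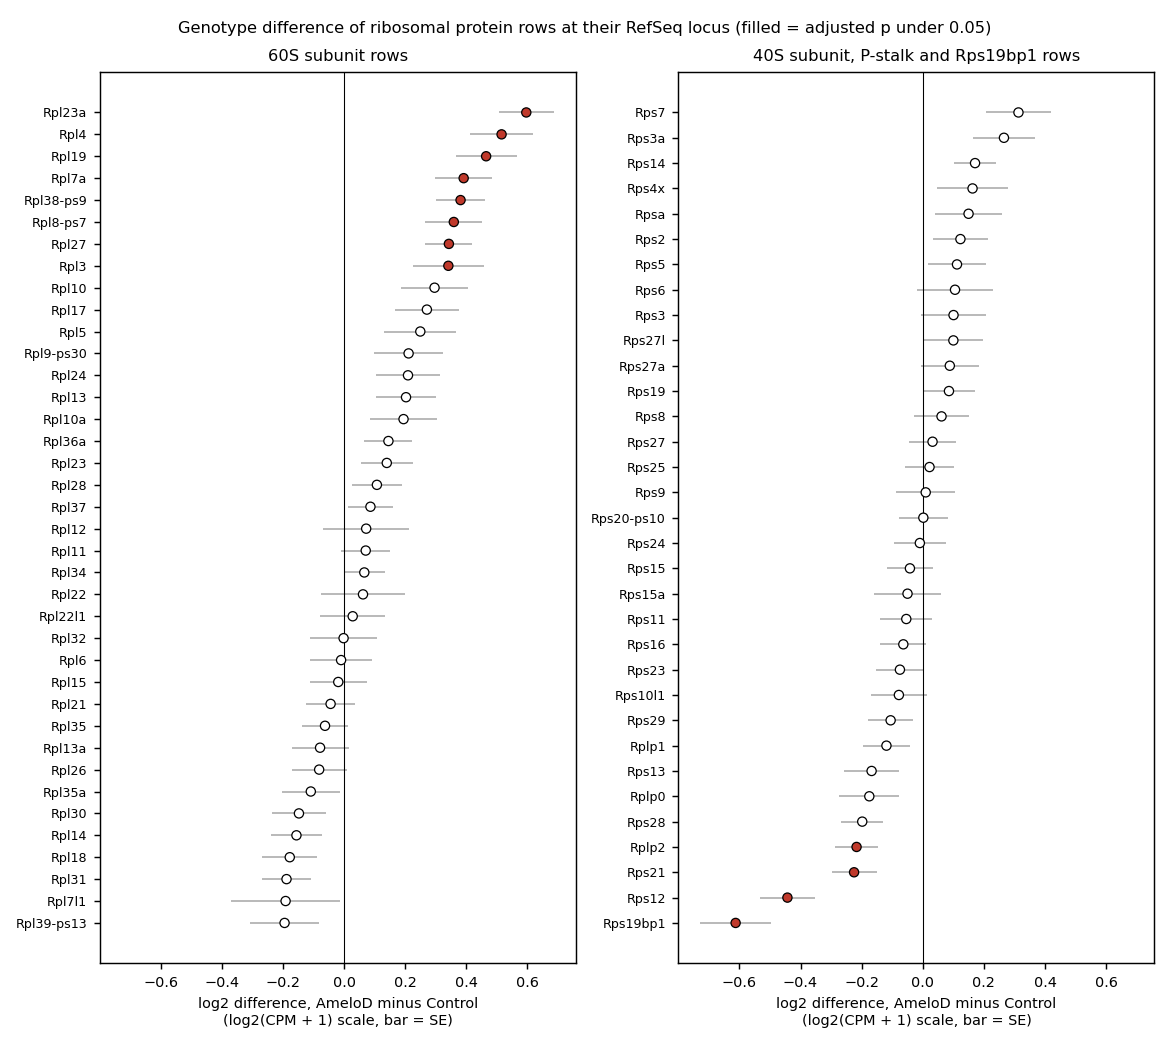
Log2 difference between AmeloD and Control (fitted over 8 libraries, bars are the SE) of rows at the RefSeq locus of their family, 60S rows on the left, the others on the right, filled where the adjusted p was below 0.05. On the left 8 rows are filled, all above 0, from Rpl3 to Rpl23a at 0.60. On the right 4 are filled, all below 0, down to Rps19bp1 at -0.61. Rows outside the name rule, such as the row without a symbol beside the neighbours of Rpl37a, are not shown.

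Rows of one family mostly lay on the same side of 0. There were 77 families, of which 32 had more than 1 row, with 93 rows in all. In 23 of the 32 every row lay on the same side of 0. No family had both a row called higher and a row called lower, and the 18 called rows belonged to 9 families that rose and 6 that fell. When the rows of a family were added up, Rpl38 read 765 ± 67.2 CPM in AmeloD and 594 ± 51.6 CPM in Control, Rpl27 543 ± 19.3 and 427 ± 11.2 CPM, and Rps7 141 ± 17.9 and 111 ± 10.9 CPM. Of the 32 sums 10 did not overlap between the genotypes, 4 higher in AmeloD (Rpl27, Rpl38, Rpl8 and Rps7) and 6 lower (Rpl26, Rpl31, Rpl37a, Rps12, Rps21 and Rps28). Of all tested genes 15% did not overlap, but these are single rows, and no share was taken for sums of other genes. Each of the 3 sums given was higher in all AmeloD than in all Control libraries, for Rps7 too, whose own row overlapped. The Rps28 family, a 40S protein next to the mRNA channel, summed to 1734 ± 147 CPM against 1988 ± 59.5 CPM without overlap, although Rps28 (-0.20, adjusted p = 0.0577) and Rps28-ps1 (-0.24, adjusted p = 0.0882) did not pass alone. Since copies can share reads, rows of a family are not independent measurements.

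**Figure D3:**
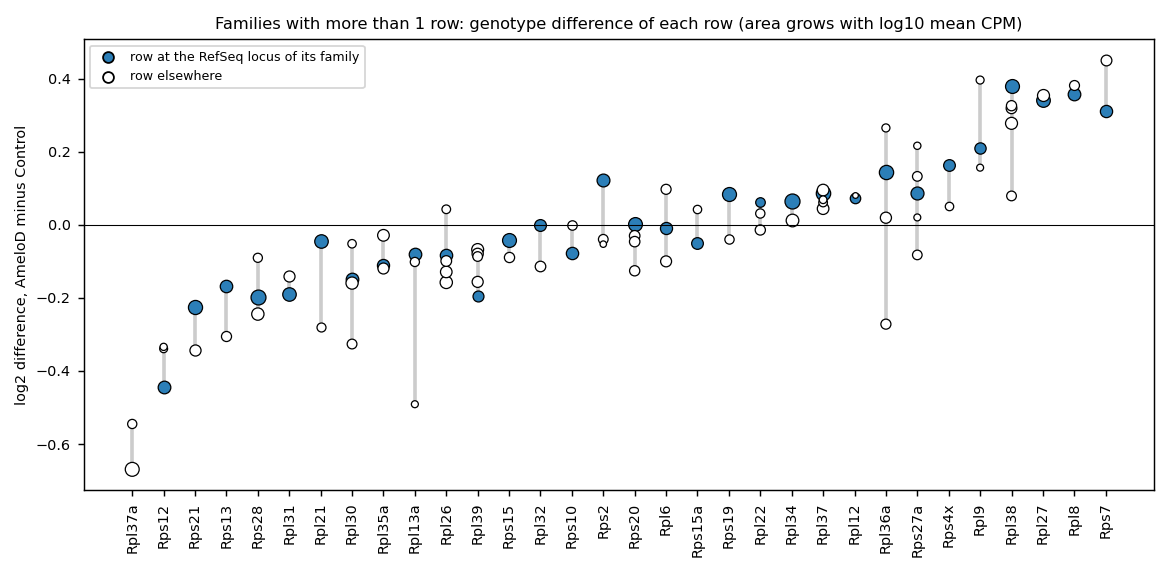
Log2 difference between AmeloD and Control for each row of the 32 families with more than 1 row, ordered by the family median; blue points are rows at the RefSeq locus of the family and white points rows elsewhere, with larger points for higher mean CPM. At the ends lie Rpl37a (-0.67 and -0.55), Rpl8 (0.36 and 0.38) and Rps7 (0.31 and 0.45). Other families spread more, such as Rpl38 (0.08 to 0.38) and Rpl30 (-0.33 to -0.05), and families such as Rpl36a lie on both sides of 0.

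A few ribosomal proteins and paralogs with known roles outside the ribosome were set to be described whatever their values, and none of these passed between the genotypes. Rpl5 and Rpl11, which with 5S RNA bind the p53 regulator Mdm2, read 36.8 to 56.2 CPM and 304 to 358 CPM over the 8 libraries, with genotype differences of 0.25 (SE 0.12, adjusted p = 0.169) and 0.07 (SE 0.08, adjusted p = 0.638). Rps6, the target of the S6 kinases, read 30.7 to 46.3 CPM (0.11, SE 0.12) and Rpsa, also a laminin receptor, 49.6 to 70.4 CPM (0.15, SE 0.11). Rps27 and its p53-responsive paralog Rps27l differed by 0.03 (SE 0.08) and 0.10 (SE 0.10). The row of Rpl22 at its locus and its paralog Rpl22l1 differed by 0.06 and 0.03. A p that misses the threshold does not show that their levels were equal.

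The genotype difference was compared between sets of libraries with no library in common. Computed from the 4 N libraries alone and from the 4 TGF libraries alone, which share no library, the differences of the 138 rows correlated with a Pearson r of 0.81 (Spearman rho 0.76), and 104 rows had the same sign. Between the pCMV6 and the pCMV6.ODAM libraries r was 0.74. Over the tested genes outside the 138 rows, which were not matched to them for abundance, r was 0.65 in both cases. These are correlations across genes, which are not independent replicates, and copies of a family add to them. In 38 rows (27.5%) the AmeloD libraries did not overlap the Control libraries, against 15% of all tested genes, also not matched for abundance.

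**Figure D4:**
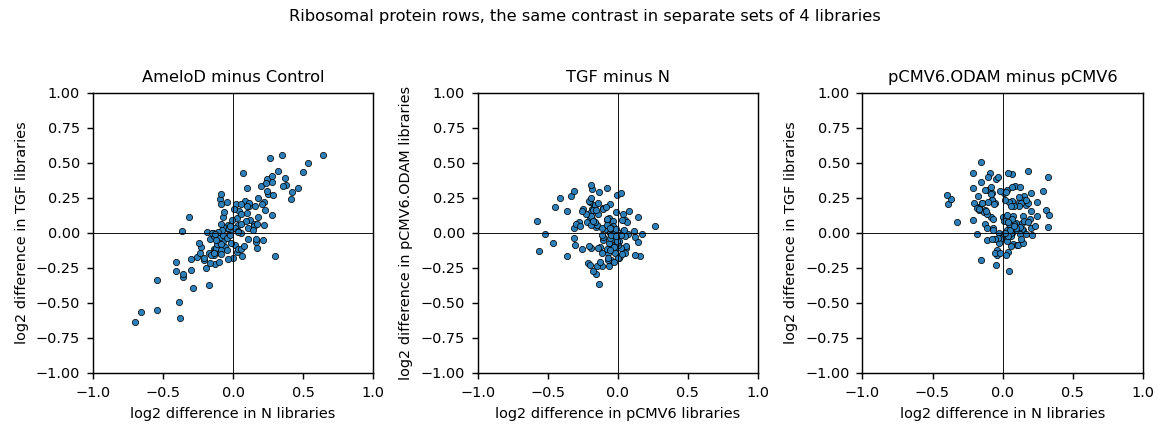
Log2 differences of the 138 rows in separate sets of 4 libraries: AmeloD minus Control in N (x axis) and TGF (y axis) libraries, TGF minus N in pCMV6 and pCMV6.ODAM libraries, and pCMV6.ODAM minus pCMV6 in N and TGF libraries. The left cloud lies along the diagonal (r = 0.81), the middle and right ones do not (r = -0.20 and -0.12).

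Between the TGF and N libraries no ribosomal protein row passed. With limma 0 of 138 rows were called, against 1.81% of all tested genes (105 higher, 19 lower), and edgeR and DESeq2 also called 0. At an unadjusted p below 0.05 limma gave 0 rows higher and 3 lower, edgeR 0 and 7, and DESeq2 0 and 6. With limma this was 2.17% of the rows against 11.9% of all tested genes, 597 higher and 219 lower. The median difference was -0.04 with 40 rows above 0, against 0.04 over all tested genes, and under TMM scaling it was -0.10 with 18 above 0 and an all-gene median of -0.01.

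The row with the smallest p was Rps27, a zinc-finger protein of the 40S subunit, with 1845 and 1727 CPM in the Control N libraries and 1622 and 1711 CPM in the Control TGF libraries. In AmeloD it read 1911 and 1938 CPM with N and 1850.0 and 1409.6 CPM with TGF. All 4 pairs had the lower value with TGF, the AmeloD pCMV6.ODAM TGF library stood far below the rest, and the groups overlapped. The difference was -0.18 (SE 0.08, adjusted p = 0.343, limma). Next were Rpl35a-ps6 and the Rpl35a row on chromosome 5, with differences of -0.23 and -0.25 (adjusted p = 0.376 and 0.382). At the upper end Rpl36al-ps5 and Rplp0 both differed by 0.15 and did not pass.

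Whether the sum of the rows was lower with TGF depended on the denominator. In CPM of the whole library it was 30115 ± 965 with TGF and 30911 ± 562 with N, with overlap. As a share of the reads in the table it was 18.2% and 17.9% in the pCMV6 TGF libraries (AmeloD, then Control), 17.7% in both pCMV6.ODAM TGF libraries, and 19.0% to 19.6% in the N libraries. All 4 TGF libraries lay below all N libraries, at 0.926 times the N mean. Tmsb10, encoding an actin-binding thymosin and the most abundant gene of the table, moved with this: it read 4717 to 5861 CPM with N and 7466 to 10580.1 CPM with TGF. With Tmsb10 left out of the denominator the share was 18.9 ± 0.132% with TGF and 19.9 ± 0.301% with N, a ratio of 0.947, still without overlap.

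**Figure D5:**
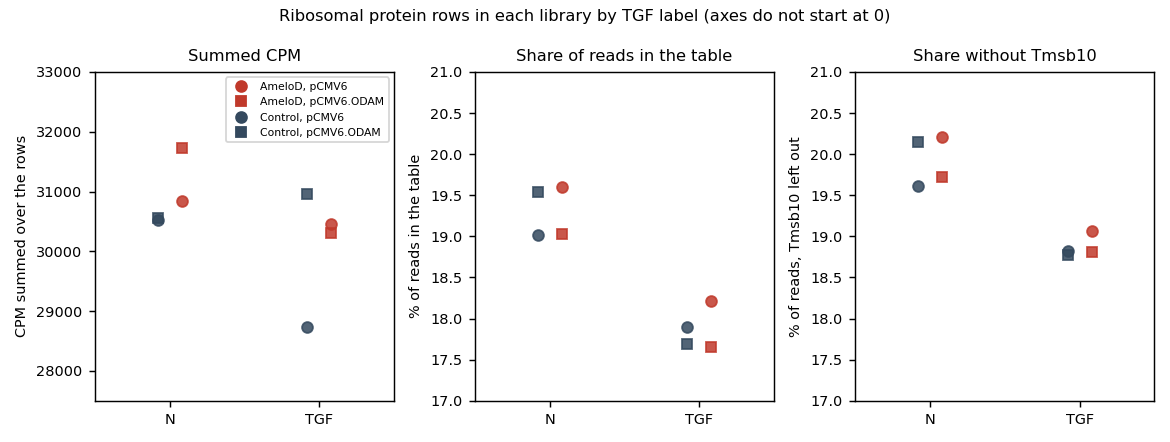
Sum of the 138 rows in each library by TGF label, as CPM (left), as percent of the reads in the table (middle) and as percent of those reads without Tmsb10 (right); circles are pCMV6 and squares pCMV6.ODAM libraries, red AmeloD and dark Control. The CPM of both labels overlap (28729 to 31728), whereas in the middle panel all TGF libraries lie at or below 18.2% and all N libraries at or above 19.0%.

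The TGF difference of single rows was compared in the same way. Between the pCMV6 and pCMV6.ODAM libraries it correlated across the 138 rows with r = -0.20, and between Control and AmeloD with r = 0.26, against 0.30 in both cases for the tested genes outside the rows. The sets compared had no library in common.

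Between the plasmid labels 0 of 138 rows passed, as did 0% of all tested genes. At an unadjusted p below 0.05 limma gave 5 rows higher with pCMV6.ODAM and 0 lower, and edgeR and DESeq2 1 higher and 0 lower. With limma this was 3.62% of the rows against 6.63% of all tested genes, 316 higher and 138 lower. The 60S protein Rpl32 had the smallest p, with 64.3 and 87.9 CPM in the AmeloD and 72.7 and 70.6 CPM in the Control pCMV6.ODAM libraries (N, then TGF). With pCMV6 it read 62.6 and 52.9 CPM in AmeloD and 58.0 and 63.2 CPM in Control, so all pCMV6.ODAM libraries lay above all pCMV6 libraries. Its mean was 73.9 ± 9.99 CPM with pCMV6.ODAM and 59.2 ± 4.79 CPM with pCMV6, a difference of 0.31 (SE 0.11, adjusted p = 0.71). Of the 138 rows 105 (76.1%) lay above 0, against 56.9% of all tested genes, with a median of 0.06 against 0.03. Under TMM scaling 84 rows lay above 0, against 3394 of all 6849 tested genes.

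No row passed an interaction test. For genotype by TGF 0 rows passed against 0.0146% of tested genes, for genotype by plasmid and for plasmid by TGF 0 rows and 0% of genes. At an unadjusted p below 0.05 the interactions of genotype had 0 and 2 rows. That of plasmid by TGF had 13 (9.42%), all above 0, where 7.36% of all tested genes reached this, 442 above and 62 below 0. For the rows edgeR gave 1 above and 9 below. Rps6 had the smallest p of these: with pCMV6 it read 46.3 and 40.8 CPM with N and 32.3 and 30.7 CPM with TGF (AmeloD, then Control), and with pCMV6.ODAM 39.1 and 36.0 CPM with N and 43.5 and 41.8 CPM with TGF. It was thus lower with TGF in both pCMV6 pairs and higher in both pCMV6.ODAM pairs, with an interaction of 0.63 (SE 0.20, adjusted p = 0.578). The median interaction of the rows was 0.07 as deposited, against 0.16 for all tested genes. Under TMM scaling it was -0.13, against -0.0038 for all tested genes. The sign of the median of the rows thus depended on the scaling, and it lay below that of all tested genes both times.

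Other genes of the pathway were read from fixed lists. Of 19 other mRNAs with a TOP start 16 were tested. In AmeloD 4 were higher, 0 lower and 12 did not pass, where 9.07% of all tested genes were higher and 4.75% lower. The median was 0.25, against 0.05 over all tested genes. Pabpc1, the poly(A)-binding protein, read 243 ± 33.5 CPM in AmeloD and 163 ± 20.2 CPM in Control, a difference of 0.58 (SE 0.10, adjusted p = 0.000305). The subunits of initiation factor 3 Eif3f, Eif3e and Eif3h differed by 0.75, 0.65 and 0.47 (adjusted p = 0.00014, 0.00202 and 0.0122). Each of the 4 genes was higher in all 4 matched pairs.

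Of 55 ribosome biogenesis genes 47 were tested. In AmeloD 0 were higher, 6 lower and 41 did not pass, against the same 9.07% higher and 4.75% lower over all tested genes. The median was -0.11 with 14 above 0, against 0.05 over all tested genes. Taf1d, a factor of RNA polymerase I, read 19.3 ± 1.29 CPM in AmeloD and 30.2 ± 4.62 CPM in Control, a difference of -0.61 (SE 0.12, adjusted p = 0.000792). The nucleolar proteins Nolc1, Gar1 and Gnl3 differed by -0.62, -0.60 and -0.64 (adjusted p = 0.006, 0.00637 and 0.00852). In Gnl3 the Control pCMV6 N library stood apart with 45.9 CPM, where the other Control libraries read 18.3 to 22.6 CPM and AmeloD 12.7 to 18.9 CPM.

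Of 14 tested genes of TOP mRNA and mTOR control, 3 factors of ribosomal protein promoters and 7 of p53 and ribosome surveillance, 0 passed between the genotypes; the medians were 0.13, 0.08 and 0.00. The smallest p-values in these lists were those of Rptor (0.41, adjusted p = 0.135), Sp1 (0.55, adjusted p = 0.0626) and Mdm2 (-0.32, adjusted p = 0.178). Between TGF and N, and between the plasmids, 0 genes of any of these lists passed. The smallest adjusted p between TGF and N was that of Gnl3 (-0.54, adjusted p = 0.105).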

How the data were processed

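RNA of 8 SF2 libraries was read with the QIAseq UPX 3' kit on a DNBSEQ-G400 and mapped to mRatBN7.2, per the labels' protocols. The submitters' processing notes name STAR 2.7.10a, DESeq2 1.20.0, featureCounts 2.0.1, cutadapt 3.7, Trimmomatic 0.39 and Trim Galore 0.6.7, without their roles. Whether counting used strand or molecular identifiers is unstated there. CPM values are as deposited; every value was a whole number of reads within 0.01, and the implied totals were used as depth. CPM counts reads near the 3' end and is not divided by length.

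Rows with at least 1 CPM in 4 libraries (6849) were fitted with limma 3.58.1 (R 4.3.3) on log2(CPM + 1), with genotype, plasmid and TGF label as additive terms, 4 residual degrees of freedom and Benjamini-Hochberg adjustment over all of them at 0.05. Interactions were fitted one at a time. Fold changes are on the log2(CPM + 1) scale, which understates low rows. Alternatives were other scalings, pseudocounts and filters, libraries left out, matched libraries as blocks, and edgeR 4.0.16 and DESeq2 1.42.0 on the recovered reads. The fit was tested on simulated data, with a spread between libraries that was set and not taken from these data. It recovered 14% of 1.25-fold, 46% of 1.5-fold and 98% of 2-fold genotype changes, with 3.01% false among the calls. A row that did not pass can thus still have changed by a small factor. The members and lists were chosen with earlier results of these data known. Named are, by rule, rows past a test (largest change first), stalk proteins, set rows with other roles (Rpsa, Rps6, Rpl5 and the like), high and low means, rows at the edge of the filter, and of each pathway list the smallest p-values. Family sums, Tmsb10, Rps28 and the rows of smallest p where none passed were named after their values were seen. One row is not reported here.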

Additional observations from a re-analysis of the deposited data

Results flagged for a closer look

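In 4 of 78 groups of 4 libraries examined, over 35 named rows and the sums, 1 library stood far from the other 3 (its gap to the nearest, as a share of the group's range, was above Dixon's 95% critical value). Chance gives this in about 1 in 20 groups. Rpl8-ps7 read 169 CPM in the AmeloD pCMV6 N library and 154 to 156 CPM in the other AmeloD libraries. Rps27 read 1409.6 CPM in the AmeloD pCMV6.ODAM TGF library against 1850.0 to 1938 CPM. Rpl11 read 358 CPM in the AmeloD pCMV6 N library against 328 to 329.7 CPM. The 40S rows summed to 10669 CPM in the Control pCMV6 TGF library against 11326 to 11354 CPM.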

How the results depend on the processing

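Of the 10 ribosomal protein rows higher and 8 lower in AmeloD, 8 rows (Rpl37a-ps1, Rps19bp1, Rps12, Rpl27, Rpl7a, Rpl19, Rpl4 and Rpl23a) were called with each library left out, under all 4 other scalings and by both count tools. None of the 18 changed sign under any alternative run. With 1 library left out 7 to 13 rows were higher and 4 to 7 lower. From 4 libraries alone there were 6 higher and 5 lower with N, 3 and 3 with TGF, 15 and 6 with pCMV6, and 2 and 2 with pCMV6.ODAM; the cause was not tested. The lower rows numbered 13 with the same median in every library, where the cause was not tested, 5 with no filter beyond 1 read, where more genes were tested, and 4 among rows at the RefSeq locus, a smaller set chosen after seeing the data. For TGF label, plasmid and interactions the counts of called rows were 0 under every alternative run. With the AmeloD and Control libraries matched for plasmid and TGF label as a replicate block, a fit added after seeing the data, 13 rows were higher and 7 lower, and of the 18 calls that of Rplp2 was lost. The replicate numbers, all 1, carry no pairing of their own. Depth limits the lowest rows: 3 reads are 0.284 CPM in the shallowest library.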

Other observations

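An abundant row without a symbol, ENSRNOG00000063418 (chr9:74298818-74302730, build mRatBN7.2), lay between Smarcal1 and Igfbp2, the genes that RefSeq places around Rpl37a. It was the fifth most abundant row, with 2286, 2744, 2412 and 2761 CPM in AmeloD and 4060.5, 4146, 3911 and 3981 CPM in Control (libraries in the order of the report). The Control libraries all lay above the AmeloD libraries, and the log2 difference was -0.66 (SE 0.07, adjusted p = 6.99e-08, limma), beside -0.67 for Rpl37a-ps1. The files give the row no name, and it was singled out after its values were seen.

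The row with the symbol Zc3h10 (chr7:972855-979349) lay in the stretch where RefSeq places Rps26 and Rpl41, with Zc3h10 itself a neighbour of Rpl41, and was the second most abundant row. It read 5941 ± 209 CPM in AmeloD and 6755 ± 327 CPM in Control (SD, n = 4 libraries), a log2 difference of -0.18 (SE 0.06, adjusted p = 0.0378, limma), lower in all 4 pairs. It was also singled out after its values were seen.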
